A study of Mus musculus with 7 samples.

Results

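The 9 pituitary genes described here are Pomc, Prl, Gh, Cga, Tshb, Lhb and Fshb, which encode the hormones of the anterior pituitary or their subunits, and Pou1f1 and Pitx1, which encode transcription factors of that gland. They were taken by name, with earlier results of these data known, and are 9 of the 55536 genes in the table that the authors deposited. RNA was measured by SMART-seq, a full-length cDNA chemistry for small cell numbers, in EPCAM+ medullary thymic epithelial cells (mTECs) sorted from mouse thymus. The 3 Cre-positive libraries (45, 76 and 80) carried Cre, Ikzf1 fl/fl and Pou2f3-/-, and the 4 Cre-negative libraries (46, 48, 75 and 77) carried Ikzf1 fl/fl and Pou2f3-/- without Cre. Cre deletes the floxed part of Ikzf1, the gene of the zinc finger factor Ikaros, and all 7 libraries lack functional Pou2f3, the factor that tuft cells require, so the comparison asks how Ikaros shapes mTEC expression apart from tuft cells. The labels give neither the promoter that drives Cre, nor the floxed exon, nor the age of the mice. They do not say that each number is a separate mouse, so the p-values below measure the spread between these libraries, which may be partly technical.

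The anterior pituitary makes its hormones in separate cell types. Corticotrophs cut the precursor encoded by Pomc into ACTH and related peptides, somatotrophs make growth hormone (Gh), lactotrophs make prolactin (Prl), and thyrotrophs and gonadotrophs make glycoprotein hormones, each a pair of the common alpha subunit (Cga) and a beta subunit of its own (Tshb, Lhb or Fshb). POU1F1, also called PIT-1, switches on Gh, Prl and Tshb in the gland, and PITX1 acts in several of its lineages. mTECs are not endocrine cells, but with the help of the regulator Aire they transcribe many genes that other organs use, and so display the products to developing T cells. Loss of tolerance to PIT-1 in people with thymoma is known to cause a pituitary deficiency, and Ikaros itself is known from mice to take part in Pomc expression in corticotrophs.

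Whole reads per gene were recovered from the deposited normalized counts and summed to between 9815958 and 12599078 per library. Genes with at least 10 reads numbered 17169 to 18014 in the Cre-positive libraries and 19417 to 20467 in the Cre-negative libraries, and the part of this difference in the results below was not tested. Ikzf1 had 1310.3, 1828.6 and 1677.5 normalized counts in Cre-positive libraries 45, 76 and 80, and 1118.7, 1149.5, 1146.8 and 1219.0 in Cre-negative libraries 46, 48, 75 and 77 (limma adjusted p = 0.0916). Since a deleted exon leaves the rest of the transcript countable, this level does not check the labels, and neither does that of Pou2f3 (7.33 ± 9.30 in Cre-positive, SD, n = 3, and 16.8 ± 10.9 in Cre-negative libraries, SD, n = 4, limma adjusted p = 0.413). Epcam had 6057 ± 627 normalized counts in Cre-positive and 4644 ± 547 in Cre-negative libraries (SD, n = 3 and 4). Since the cells were sorted by EPCAM, this level does not check mTEC identity. Ccl21a, a marker of immature mTECs, was listed at 0 throughout. Whether counting lost its reads was not tested, so nothing on immature mTECs is read from it. Of 10 tested mTEC markers 3 were called lower and 2 higher, and those other than Aire are named after their values were seen. Cd80, of mature mTECs, had 317 ± 58.0 in Cre-positive and 1170 ± 266 in Cre-negative libraries (limma log2 fold change -1.87, adjusted p = 2.51e-04), and Cldn4 had 225 ± 37.0 in Cre-positive and 674 ± 157 in Cre-negative libraries (-1.56, limma adjusted p = 0.00125; SD, n = 3 and 4). Krt14, a keratin of mTECs, was higher, with 4594 ± 1115 in Cre-positive and 1640 ± 502 in Cre-negative libraries (1.51, limma adjusted p = 0.00132; SD, n = 3 and 4), and Krt5 had 0.59 (limma adjusted p = 0.0475), a call lost with library total scaling (0.197) and without any single library but Cre-negative 48 (0.0511 to 0.126). Aire had 2967 ± 308 in Cre-positive and 4417 ± 767 in Cre-negative libraries (log2 fold change -0.56, limma adjusted p = 0.0395; 0.0921 to 0.133 without Cre-positive 45 or 76 or Cre-negative 75 or 77). Markers of other cells were present in both groups. Summed thymocyte markers (10 genes) ran from 629 to 2428 in Cre-positive and from 769.2 to 1465 in Cre-negative libraries, and red cell markers (6 genes) from 116.0 to 1305 in Cre-positive and from 364.4 to 2688 in Cre-negative libraries. Cortical epithelial markers (8 genes, 2 called lower and 1 higher) ran from 26209 to 38870 in Cre-positive and from 25876 to 30936 in Cre-negative libraries, and fibroblast and endothelial markers (8 genes, 1 called lower) from 1377 to 1852 in Cre-positive and from 1347 to 1733 in Cre-negative libraries. The called cortical markers, named after their values were seen, were Ctsl (1.46, limma adjusted p = 3.58e-04), Ccl25 (-0.82, limma adjusted p = 0.0185) and Dll4 (-1.25, limma adjusted p = 0.0478). Ctsl had 12952 ± 3051 in Cre-positive and 4664 ± 829 in Cre-negative libraries (SD, n = 3 and 4). The median log2 fold change of the 8 was -0.63, so the cortical sums do not give the direction of the list. Tuft cell markers (8 genes) summed to between 367.9 and 645.9 in Cre-positive and between 334.9 and 541.3 in Cre-negative libraries. Neuroendocrine markers, those of the mTEC subtype closest to hormone-secreting cells (9 genes, 3 called lower and 1 higher), summed to between 2692 and 3483 in Cre-positive and between 3539 and 5053 in Cre-negative libraries. In several lists a single gene, named after its values were seen, made up much of the sum. Insm1, a neuroendocrine marker, had 2554 ± 344 in Cre-positive and 3575 ± 575 in Cre-negative libraries (SD, n = 3 and 4, limma adjusted p = 0.0839). It was most of each neuroendocrine sum and was not called, so the gap between those sums is not read as a change of the whole list. The tuft sum without Dclk1 ran from 61.7 to 233.6 in Cre-positive and from 125.1 to 171.1 in Cre-negative libraries. Without Dcn the fibroblast and endothelial sum ran from 387.2 to 681.0 in Cre-positive and from 606.3 to 842.1 in Cre-negative libraries. B cell markers (7 genes, median -0.43) ran from 1877 to 3060 in Cre-positive and from 490.0 to 742.3 in Cre-negative libraries, and without Igll1 from 241.3 to 495.1 in Cre-positive and from 339.3 to 469.4 in Cre-negative libraries. Igll1 was called higher (3.49, limma adjusted p = 1.22e-05) and Pax5 lower (-1.64, limma adjusted p = 0.0220; 0.0601 to 0.0675 without Cre-positive 76 or Cre-negative 48 or 75). Macrophage and dendritic markers (8 genes, median -0.68) ran from 7861 to 11484 in Cre-positive and from 5397 to 7075 in Cre-negative libraries, and without Lyz2 from 337.3 to 1070.4 in Cre-positive and from 905.3 to 949.4 in Cre-negative libraries. Lyz2 was called higher (0.66, limma adjusted p = 0.0328; 0.0650 to 0.128 without Cre-positive 80 or Cre-negative 46, 48 or 77, and 0.0930 with library total scaling) and Adgre1 lower (-2.91, limma adjusted p = 8.19e-04). The part of these cells in the results was not tested. Y-linked genes were read in Cre-negative 48 alone beyond 1 normalized count (3938 in sum).

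The start regions of Pomc, Cga and Tshb, whose RNA differed between the groups, and of Prl, which was close to undetected, are shown because they are the sequences at which gland transcription is controlled. RefSeq on GRCm38.p6 gave a window of 250 bases before to 50 after the start for 7 of the 9 genes. Capitals mark matches to TATAAA (searched on the gene's strand), to the POU1F1 motif TATNCAT, to the PITX motif TAATCC, to the Ikaros core TGGGAA and to the cAMP response element TGANGTCA (each searched on both strands).
Pomc, chr12:3954695-3954994, + strand: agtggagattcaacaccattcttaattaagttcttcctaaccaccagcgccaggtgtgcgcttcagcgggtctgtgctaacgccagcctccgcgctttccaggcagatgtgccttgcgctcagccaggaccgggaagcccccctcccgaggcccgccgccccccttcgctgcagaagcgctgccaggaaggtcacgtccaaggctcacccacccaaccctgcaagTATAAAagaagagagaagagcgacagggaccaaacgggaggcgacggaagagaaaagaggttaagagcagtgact
Cga, chr4:34893529-34893828, + strand: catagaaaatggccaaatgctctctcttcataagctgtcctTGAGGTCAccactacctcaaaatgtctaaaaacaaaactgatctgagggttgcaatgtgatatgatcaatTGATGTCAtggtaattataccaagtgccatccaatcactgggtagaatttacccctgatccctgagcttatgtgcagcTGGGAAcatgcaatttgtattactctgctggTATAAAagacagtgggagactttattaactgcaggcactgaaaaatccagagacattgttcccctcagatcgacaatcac
Tshb, chr3:102782665-102782964, - strand: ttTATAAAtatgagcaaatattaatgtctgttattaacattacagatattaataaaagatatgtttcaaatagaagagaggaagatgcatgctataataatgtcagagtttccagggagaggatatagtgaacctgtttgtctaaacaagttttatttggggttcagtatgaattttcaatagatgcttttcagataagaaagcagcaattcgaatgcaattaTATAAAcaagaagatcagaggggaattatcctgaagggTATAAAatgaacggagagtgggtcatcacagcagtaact
Prl, chr13:27057320-27057619, + strand: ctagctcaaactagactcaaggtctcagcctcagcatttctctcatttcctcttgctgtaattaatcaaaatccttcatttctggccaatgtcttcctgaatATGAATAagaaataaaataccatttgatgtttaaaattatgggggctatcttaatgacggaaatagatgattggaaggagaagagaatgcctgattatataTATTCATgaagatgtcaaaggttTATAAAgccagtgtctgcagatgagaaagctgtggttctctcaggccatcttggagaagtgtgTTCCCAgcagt
Each of the 7 genes had a TATAAA close to its start (Pou1f1 at 1 of its starts), 25 bases upstream in Pomc, 30 in Cga and 27 in Tshb, against 8.32% of all 32851 promoter windows that hold these letters anywhere. POU1F1 letters were found in Prl at positions -148 and -47 and in Pou1f1 at -57 (overlapping a TATAAA) and +12, and in 8.84% of all windows; those of Tshb, Cga and Pomc did not hold them. Cga held TGANGTCA at -209 and -139 (8.83% of all windows) and TGGGAA at -61, and Prl held TGGGAA at +39 (25.6% of all windows). TAATCC was not in these windows (7.06% of all). The Tshb window was poor in G and C, with 32.0%, and that of Pomc had 59.0%, against a median of 52.7% over all windows. A match of letters is a description and not a site.

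Expression of the corticotroph gene Pomc was much lower in Cre-positive than in Cre-negative mTECs. Pomc (ENSMUSG00000020660, chr12:3954951-3960642 on GRCm38, + strand) had 143.2, 117.2 and 360.2 normalized counts in Cre-positive libraries 45, 76 and 80, and 936.9, 847.1, 1386.4 and 926.4 in Cre-negative libraries 46, 48, 75 and 77. Every Cre-positive library lay below every Cre-negative library, as was so for 14.5% of all genes tested. The mean was 206.9 ± 133 in Cre-positive (SD, n = 3) and 1024 ± 245 in Cre-negative libraries (SD, n = 4), a ratio of 0.202. On the log2(normalized count + 1) scale the difference was -2.46 (SE 0.34, 95% interval -3.19 to -1.73), which passed limma's test (adjusted p = 6.15e-04). Genes are called here at a Benjamini-Hochberg adjusted p under 0.05 over the 22878 genes that averaged 5 or more normalized counts, of which 13.8% were called, 9.11% lower and 4.66% higher. Among genes as abundant as Pomc and Cga (200 to 1000 normalized counts) 8.08% were called lower, and among those as abundant as Tshb (50 to 200) 12.1%. In these bulk libraries fewer cells with Pomc RNA and less Pomc RNA per cell cannot be told apart. The call held with each library left out in turn (-2.95 to -2.14). Within the libraries numbered 45 to 48 the difference was -2.63 (1 against 2 libraries), and within those numbered 75 to 80 it was -2.46 (2 against 2); the labels do not say what these numbers mark. The authors' deposited table gives Pomc 2.31 as Cre-negative over Cre-positive (adjusted p = 3.65e-08).

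Cga, the alpha subunit common to TSH, LH and FSH, was lower by more than Pomc in its estimate, though the intervals of the fold changes overlapped. Cga (ENSMUSG00000028298, chr4:34893779-34907370, + strand) had 108.7, 18.0 and 20.8 normalized counts in Cre-positive libraries 45, 76 and 80, and 547.2, 190.1, 371.1 and 699.9 in Cre-negative libraries 46, 48, 75 and 77. The groups did not overlap, although Cre-positive 45 stood well above the other Cre-positive libraries. The mean was 49.2 ± 51.6 in Cre-positive (SD, n = 3) and 452.1 ± 220 in Cre-negative libraries (SD, n = 4), and limma called Cga lower (log2 fold change -3.51, SE 0.58, adjusted p = 0.00199). Without Cre-positive 45 the log2 fold change was -4.32. It was -1.56 within the libraries numbered 45 to 48 and -4.65 within those numbered 75 to 80. In position Cga overlaps Platr9 on the opposite strand by 305 exon bases, and how the counting treated strand is not given in the sources used here; Platr9 had 7.60 ± 11.5 normalized counts in Cre-positive (SD, n = 3) and 6.98 ± 7.86 in Cre-negative libraries (SD, n = 4).

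Tshb, the beta subunit that makes TSH with Cga, was lower as well. Tshb (ENSMUSG00000027857, chr3:102775465-102782718, - strand) had 24.0, 17.0 and 3.1 normalized counts in Cre-positive libraries 45, 76 and 80, and 181.0, 106.4, 100.9 and 87.9 in Cre-negative libraries 46, 48, 75 and 77. All 3 Cre-positive values lay below all 4 Cre-negative values, and the lowest, in Cre-positive 80, rests on 3 reads. The mean was 14.7 ± 10.6 in Cre-positive (SD, n = 3) and 119.1 ± 42.0 in Cre-negative libraries (SD, n = 4), with a limma log2 fold change of -3.23 (SE 0.62, adjusted p = 0.00480). Without Cre-positive 80 it was -2.44 and still called. Within the libraries numbered 45 to 48 the difference was -2.48, and within those numbered 75 to 80 it was -3.47. Tshb overlaps Tspan2 on the other strand without sharing exon bases with it, and Tspan2 was not called (219.2 ± 63.1 in Cre-positive and 148.5 ± 58.0 in Cre-negative libraries, SD, n = 3 and 4, limma adjusted p = 0.289). Per kilobase of coding transcript, Tshb stood at 32.5%, 139% and 21.9% of Cga in Cre-positive libraries 45, 76 and 80, and at 48.6%, 82.3%, 40.0% and 18.5% in Cre-negative libraries 46, 48, 75 and 77. These shares of beta to alpha subunit RNA overlapped between the groups.

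The gonadotrophin beta subunits were close to the limit of detection. In position Lhb overlaps Ruvbl2 on the opposite strand by 138 exon bases, and how the counting treated strand is not given in the sources used here. Ruvbl2 had 410 ± 25.6 normalized counts in Cre-positive and 297 ± 180 in Cre-negative libraries (SD, n = 3 and 4). Lhb (ENSMUSG00000100916, chr7:45420820-45421897, + strand) had 1 read in each Cre-positive library, and 1, 0, 1 and 5 reads in Cre-negative libraries 46, 48, 75 and 77, and did not reach the mean of 5 normalized counts required for the test (difference of -0.10 on the log2 scale, exact two-sided permutation p = 0.914, where 4 against 3 cannot go below 0.0571). Fshb (ENSMUSG00000027120, chr2:107056140-107059656, - strand) had 0, 1.0 and 3.1 normalized counts in Cre-positive libraries 45, 76 and 80, and 1.7, 37.4, 0 and 1.0 in Cre-negative libraries 46, 48, 75 and 77. Only Cre-negative 48, with 38 reads, had more than 3 reads of Fshb. Its log2 fold change of -0.91 (SE 1.32) was not called by limma (adjusted p = 0.701), was 0.57 with a term for Y-linked genes, and could not be tested without that library. Per kilobase, the mean normalized count in Cre-negative mTECs was 474 for the alpha subunit gene, 6.27 for Fshb and 2.54 for Lhb.

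The same family holds thyrostimulin, a hormone formed by another alpha subunit, Gpha2, and its beta subunit, Gphb5, and both genes were lower. Gpha2 had 84.6, 127.2 and 182.7 normalized counts in Cre-positive libraries 45, 76 and 80, and 429.1, 231.5, 572.0 and 599.7 in Cre-negative libraries 46, 48, 75 and 77 (limma log2 fold change -1.77, SE 0.36, adjusted p = 0.00642). Gphb5 had 0, 23.0 and 2.1 in Cre-positive libraries 45, 76 and 80, and 87.2, 38.4, 80.2 and 93.0 in Cre-negative libraries 46, 48, 75 and 77 (limma log2 fold change -4.09, SE 0.93, adjusted p = 0.0118). Neither gene's groups overlapped. The value of Gphb5 was -3.06 without Cre-positive 45 and -5.35 without 76, and it missed the threshold in edgeR's quasi-likelihood test (-3.11, adjusted p = 0.0625).

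Growth hormone RNA was readily measured in both groups and was not called. Gh (ENSMUSG00000020713, chr11:106300271-106301865, - strand) had 72.1, 101.1 and 13.5 normalized counts in Cre-positive libraries 45, 76 and 80, and 96.4, 86.7, 253.1 and 111.7 in Cre-negative libraries 46, 48, 75 and 77. The groups overlapped, since Cre-positive 76 exceeded Cre-negative 46 and 48. The mean was 62.2 ± 44.6 in Cre-positive (SD, n = 3) and 137.0 ± 78.1 in Cre-negative libraries (SD, n = 4), and the log2 fold change of -1.39 (SE 0.62, 95% interval -2.73 to -0.06) gave a limma adjusted p of 0.159. Without Cre-positive 80 it was -0.53, and without Cre-positive 76 it was -1.94. Prolactin stood apart from growth hormone: Prl (ENSMUSG00000021342, chr13:27057570-27065205, + strand) had 0, 1 and 3 reads in Cre-positive libraries 45, 76 and 80, and 0, 1, 2 and 1 in Cre-negative libraries 46, 48, 75 and 77, and was below the test's minimum. At this depth no difference in Prl was detectable (0.14 on the log2 scale, exact two-sided permutation p = 0.971).

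The factor that drives Gh, Prl and Tshb in the gland, Pou1f1, was itself transcribed. Pou1f1 (ENSMUSG00000004842, chr16:65520511-65535005, + strand) had 15.7, 40.1 and 3.1 normalized counts in Cre-positive libraries 45, 76 and 80, and 29.3, 60.1, 105.4 and 35.2 in Cre-negative libraries 46, 48, 75 and 77. Only Cre-positive 76 reached into the Cre-negative range. The mean was 19.6 ± 18.8 in Cre-positive (SD, n = 3) and 57.5 ± 34.6 in Cre-negative libraries (SD, n = 4), and the log2 fold change of -1.87 (SE 0.78) was not called by limma (adjusted p = 0.131; -0.98 without Cre-positive 80, and -2.64 with an adjusted p of 0.0513 without 76). Pitx1 (ENSMUSG00000021506, chr13:55825051-55836192, - strand), a homeobox factor of the pituitary and the hindlimb, had 1.0, 0 and 2.1 normalized counts in Cre-positive libraries 45, 76 and 80, and 2.5, 5.9, 3.6 and 1.0 in Cre-negative libraries 46, 48, 75 and 77, too few for the test (difference -1.07, exact two-sided permutation p = 0.171).

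**Figure D1:**
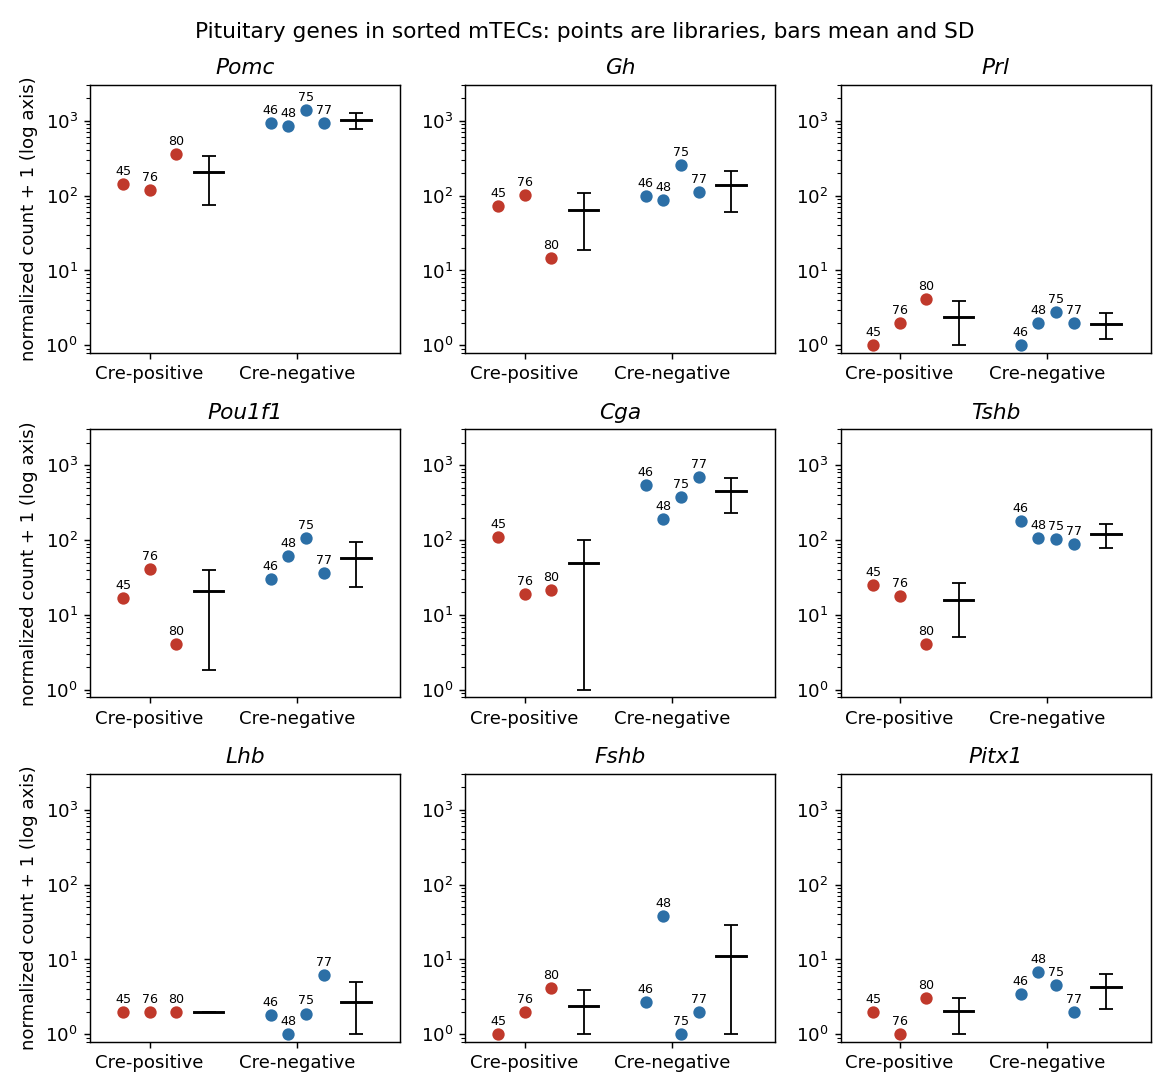
Normalized counts plus 1 on a log axis for each of the 9 pituitary genes, with Cre-positive libraries in red and Cre-negative libraries in blue, each point a library with its number. Horizontal bars are group means and whiskers 1 SD, with lower whiskers stopped at a count of 0. The groups are apart for Pomc, Cga and Tshb, overlap for Gh and Pou1f1, and lie near 0 for Prl, Lhb and Pitx1.

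**Figure D2:**
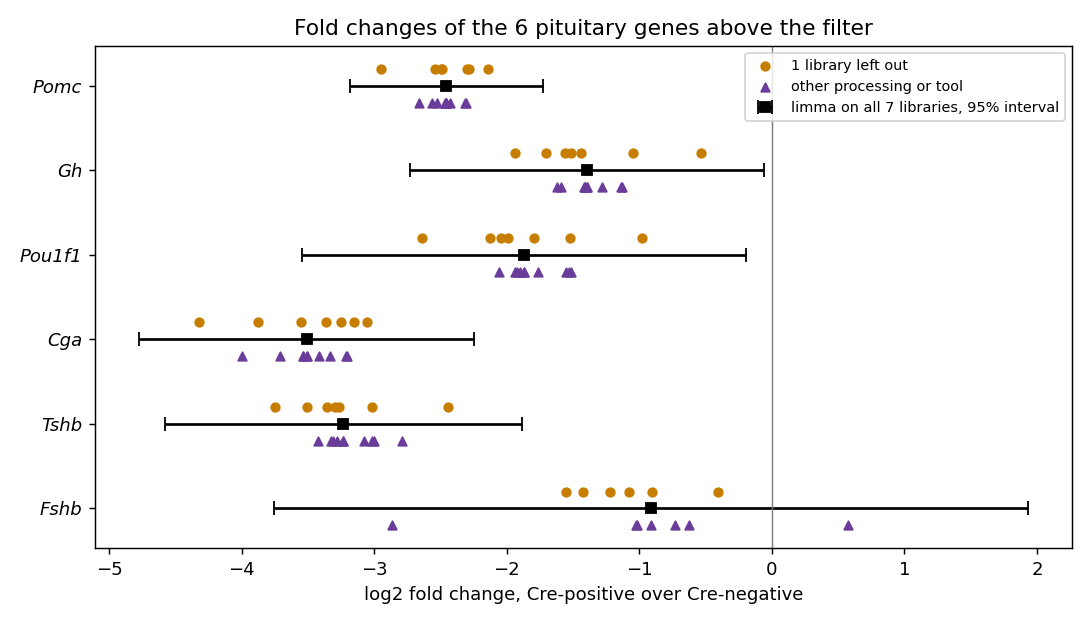
Log2 fold change, Cre-positive over Cre-negative, of the 6 pituitary genes that reached the minimum mean of 5 normalized counts. Squares and lines are the limma estimate and its 95% interval over 7 libraries, circles leave out 1 library each, and triangles use another setting or tool. All circles and triangles of Pomc, Cga and Tshb lie below -2, and the triangles of Fshb fall on both sides of 0.

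Per kilobase of coding transcript, the order of levels differed in part between the groups. In Cre-positive libraries Pomc was highest (157 normalized counts per kilobase, range 88.9 to 273), followed by Gh (72.2, range 15.7 to 117), Cga (51.5, range 18.9 to 114), Tshb (22.7, range 4.78 to 37.0) and Pou1f1 (9.91, range 1.56 to 20.2). In Cre-negative libraries the order was Pomc (777, range 643 to 1052), Cga (474, range 199 to 734), Tshb (183, range 135 to 279), Gh (159, range 101 to 294) and Pou1f1 (29.0, range 14.8 to 53.2). Of these 5 genes, Pomc and Pou1f1 held their places, and the ranges of neighbours in either order overlapped except for Gh and Pou1f1 in Cre-negative libraries. The remaining 4 genes had means under 2 per kilobase in Cre-positive libraries (Prl 1.53, Lhb 1.47, Fshb 0.854 and Pitx1 0.389) and under 7 in Cre-negative libraries (Fshb 6.27, Lhb 2.54, Pitx1 1.22 and Prl 1.06). Their ranges overlapped, except for Lhb and Pitx1 in Cre-positive libraries.

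The libraries ranked differently from gene to gene. Cre-positive 80 had the highest Pomc of its group but the lowest Tshb, Gh and Pou1f1, and Cre-positive 45 had the highest Cga and Tshb. Among Cre-negative libraries, 75 was highest for Pomc, Gh and Pou1f1, 77 for Cga and 46 for Tshb. The residual SD within groups, on the log2 scale, was 0.60 for Pomc, and 51.0% of tested genes had a larger one. It was 0.95 for Tshb, 1.09 for Cga, 1.10 for Gh and 1.23 for Pou1f1, with 32.3%, 26.7%, 26.6% and 21.5% of tested genes above them. Fshb had 1.90, exceeded by 4.79%. Over the 7 libraries, the gene whose centred log2 profile was closest to Pomc was Cldn13 (mean absolute difference 0.18), followed by Igfbp6 (0.21) and the pepsinogen gene Pga5 (0.23). Closest to Cga were the mast cell protease gene Mcpt4 (0.22), the urinary protein gene Mup6 (0.29) and the glucagon gene Gcg (0.33), and closest to Tshb were Nrxn3 (0.15), Insc (0.23) and the pancreas factor gene Ptf1a (0.24). For Gh they were Clip3, Glrb and Slc38a4 (each 0.28), for Pou1f1 Npm2 (0.27), Ripor2 (0.30) and Fam19a5 (0.32), and for Fshb Mrgprb1 (0.32), Olfr1280 (0.54) and Cmklr1 (0.55). Among the 6 of these genes above the minimum, Gh and Pou1f1 were each other's closest (0.39), as were Cga and Tshb (0.74).

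Most of the tested hypothalamic factors that control pituitary secretion were lower. Of the 8 tested of 9 listed, 7 were called lower. The median log2 fold change of the 8 was -2.99, against -0.10 over all genes tested and 9.11% of them called lower. Adcyap1, Crh and Trh averaged under 5 in Cre-positive libraries and were tested only because of their Cre-negative level, and the 5 factors at or above 5 in both groups had a median of -2.27, with 4 called lower. Sst, the somatostatin that restrains Gh and TSH release, had 120.2, 111.2 and 89.3 normalized counts in Cre-positive libraries 45, 76 and 80, and 1223.5, 715.1, 793.6 and 1072.1 in Cre-negative libraries 46, 48, 75 and 77 (limma log2 fold change -3.12, SE 0.25, adjusted p = 1.30e-05). Ghrh, the releasing hormone for Gh, had 92.0, 29.0 and 52.9 in Cre-positive libraries 45, 76 and 80, and 258.9, 197.0, 264.8 and 311.2 in Cre-negative libraries 46, 48, 75 and 77 (-2.27, limma adjusted p = 0.00225). The groups were apart for both genes. Adcyap1, which encodes PACAP, had 1.0, 4.0 and 1.0 normalized counts in Cre-positive libraries 45, 76 and 80, and 178.5, 171.4, 202.7 and 318.4 in Cre-negative libraries 46, 48, 75 and 77 (limma log2 fold change -6.29, adjusted p = 3.40e-05). Trh, which releases TSH, had 0, 2.0 and 2.1 in Cre-positive libraries 45, 76 and 80, and 37.7, 25.6, 108.1 and 83.7 in Cre-negative libraries 46, 48, 75 and 77 (-4.72, limma adjusted p = 0.00225). Crh, which releases ACTH, had 0, 2.0 and 1.0 in Cre-positive libraries 45, 76 and 80, and 57.0, 230.5, 30.6 and 72.4 in Cre-negative libraries 46, 48, 75 and 77 (-5.36, limma adjusted p = 0.00119, and 0.0537 with limma-voom). In each of these 3 genes the Cre-positive libraries held a few reads at most. The posterior pituitary hormones vasopressin and oxytocin were less firmly lower. Oxt had 67.8 ± 75.9 in Cre-positive and 270 ± 43.5 in Cre-negative libraries (SD, n = 3 and 4, limma log2 fold change -2.87, adjusted p = 0.0225), with -1.68 without Cre-positive 76, -3.90 without 80 and no call without Cre-negative 46, 48 or 77 (adjusted p = 0.0545 to 0.0565) or in edgeR (0.0751). Avp had 102 ± 93.2 in Cre-positive and 361 ± 142 in Cre-negative libraries (SD, n = 3 and 4, limma log2 fold change -2.16, adjusted p = 0.0208), the groups overlapped, and its value was -1.45 without Cre-positive 45 and -2.89 without 80. Avp was not called without Cre-positive 45 or 76 or Cre-negative 46 or 77 (adjusted p = 0.0539 to 0.0660) or in edgeR (0.0535). The tested factor that was not called, Gnrh1, is named after its values were seen (limma adjusted p = 0.0715), and Kiss1 was at 0 in all 7 libraries.

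The pituitary receptors for those factors were called in both directions. Of 9 tested receptors of 13 listed, 4 were called lower and 1 higher, against 9.11% and 4.66% of all genes tested. The 9 had a median of -0.19. Crhr1 and Ghsr were tested only because of their Cre-negative level, and the other 7 had a median of 0.18, with 2 called lower and 1 higher. The 2 called lower, Trhr and Adcyap1r1, averaged 5.13 and 6.17 in Cre-positive libraries, just above the 5 that sets Crhr1 and Ghsr apart. Trhr, the receptor for TRH, had 5.2, 4.0 and 6.2 normalized counts in Cre-positive libraries 45, 76 and 80, and 55.3, 39.4, 72.1 and 70.3 in Cre-negative libraries 46, 48, 75 and 77 (limma log2 fold change -3.27, adjusted p = 0.00316). Adcyap1r1, the PACAP receptor, had 5.2, 6.0 and 7.3 in Cre-positive libraries 45, 76 and 80, and 49.4, 105.4, 85.6 and 63.1 in Cre-negative libraries 46, 48, 75 and 77 (-3.38, limma adjusted p = 0.00189). The ligand genes Trh and Adcyap1 were tested only because of their Cre-negative level, so no pairing of ligand with receptor is read from them. Crhr1, the CRH receptor, had 1.0 ± 1.73 in Cre-positive and 26.5 ± 14.8 in Cre-negative libraries (SD, n = 3 and 4, limma log2 fold change -3.81, adjusted p = 0.0223), with no call without Cre-positive 45 or 80 or Cre-negative 48, 75 or 77 (adjusted p = 0.0582 to 0.0683), and -4.48 without Cre-positive 76 and -4.44 without Cre-negative 46. Ghsr, the ghrelin receptor, had 2.0 ± 2.65 in Cre-positive and 21.2 ± 11.7 in Cre-negative libraries (SD, n = 3 and 4, limma log2 fold change -3.14, adjusted p = 0.0360), with no call without Cre-positive 45 or 80 or Cre-negative 46, 48 or 77 (adjusted p = 0.0670 to 0.107), -2.54 without Cre-positive 45 and -3.83 without 76. Acvr2a, an activin receptor through which FSH is induced, was higher at 202 ± 60.5 in Cre-positive and 90.0 ± 31.2 in Cre-negative libraries (SD, n = 3 and 4, limma log2 fold change 1.17, adjusted p = 0.0453), and that call was lost without Cre-positive 45 or 80 or Cre-negative 48, 75 or 77 (adjusted p = 0.0757 to 0.167) and with scaling to library totals (0.0830). Ghrhr, the GHRH receptor, had 41.2 ± 37.0 in Cre-positive and 38.2 ± 14.0 in Cre-negative libraries (SD, n = 3 and 4), and neither it nor Acvr2b was called.

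**Figure D3:**
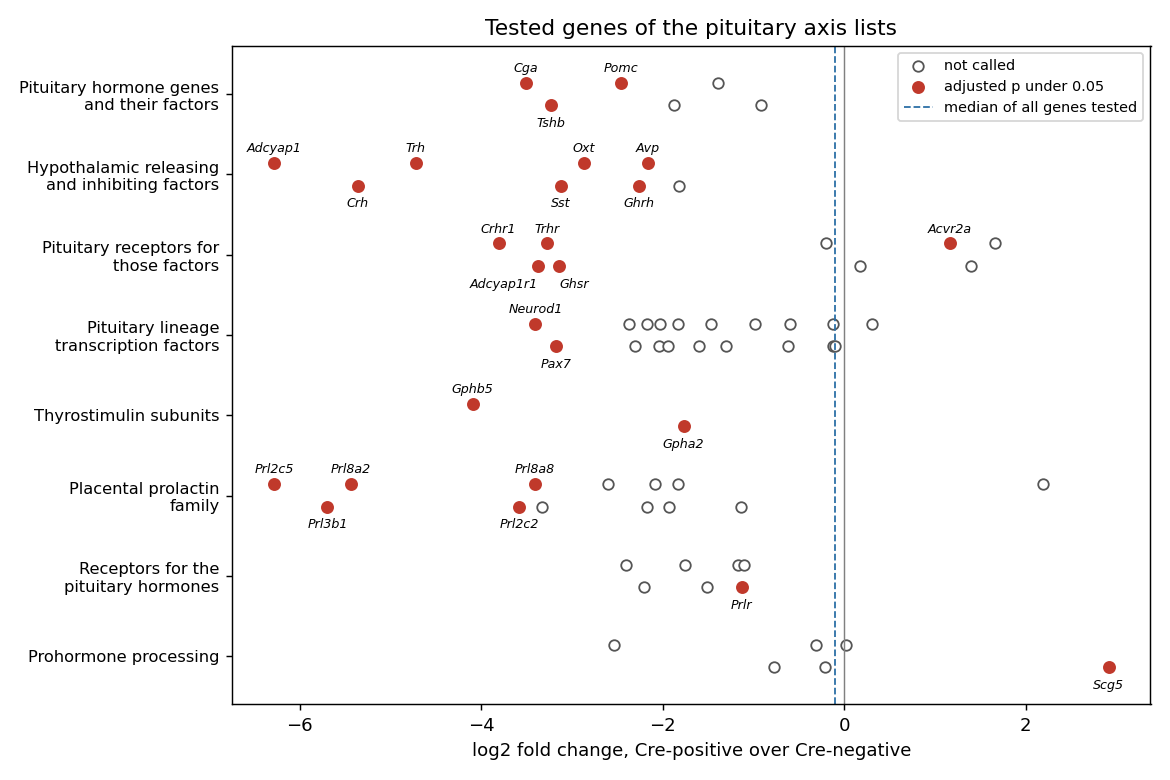
Log2 fold change, Cre-positive over Cre-negative, of each tested gene in the pituitary gene lists, grouped by list along the y axis. Filled red points passed limma's test and carry their names, open points did not pass, and the dashed line is the median of all tested genes at -0.10. The 7 called hypothalamic factors lie below -2, and Scg5 and Acvr2a are the called genes to the right of 0.

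Most transcription factors of the pituitary lineages were low in these cells and were not called. Of 19 tested of 22 listed, 2 were called lower, Pax7, the selector of melanotrophs, and Neurod1, a partner in Pomc transcription. Over all genes tested 9.11% were called lower, so these calls say nothing of the list. The median log2 fold change of the 19 was -1.60. It was -0.98 over the 13 that averaged 5 or more in both groups, since the other 6 were tested only because of their Cre-negative level. Pax7 had 0, 11 and 14.5 normalized counts in Cre-positive libraries 45, 76 and 80, and 22.6, 46.3, 77.5 and 79.6 in Cre-negative libraries 46, 48, 75 and 77 (limma log2 fold change -3.17, adjusted p = 0.0390). Its call was lost without Cre-positive 45 or Cre-negative 48, 75 or 77 (adjusted p = 0.0821 to 0.102), and its value was -1.92 without Cre-positive 45 and -3.90 without 80. Neurod1 had 13.6, 3.0 and 0 in Cre-positive libraries 45, 76 and 80, and 67.0, 39.4, 75.7 and 12.4 in Cre-negative libraries 46, 48, 75 and 77 (limma log2 fold change -3.40, adjusted p = 0.0341). Its groups overlapped by the lowest Cre-negative library, its call was lost without Cre-positive 76 or 80 or Cre-negative 46, 48 or 75 (adjusted p = 0.0684 to 0.0989), and its value was -4.36 without Cre-positive 45 and -2.42 without 80. edgeR called neither (adjusted p = 0.0830 for Pax7 and 0.0747 for Neurod1). The most abundant factors of the list, which were not called, included Egr1, the inducer of Lhb in gonadotrophs, with 3652 ± 800 in Cre-positive and 4050 ± 1365 in Cre-negative libraries (SD, n = 3 and 4). Isl1 had 808 ± 136 in Cre-positive and 661 ± 161 in Cre-negative libraries, Nr4a1 had 262 ± 36.6 in Cre-positive and 309 ± 161 in Cre-negative libraries, and Rxrg had 95.9 ± 12.9 in Cre-positive and 104 ± 16.1 in Cre-negative libraries (SD, n = 3 and 4). Tbx19, the corticotroph factor for Pomc, is named for its role after its values were seen and had 1.67 ± 2.08 in Cre-positive and 8.55 ± 7.55 in Cre-negative libraries (SD, n = 3 and 4, limma adjusted p = 0.267).

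Of 6 tested genes that process prohormones, 1 was called, and it was higher. Scg5, which encodes 7B2, the chaperone of the convertase PCSK2, had 4459.8, 4600.5 and 6013.4 normalized counts in Cre-positive libraries 45, 76 and 80, and 620.1, 824.4, 734.2 and 499.4 in Cre-negative libraries 46, 48, 75 and 77. It was far higher in every Cre-positive library, with a limma log2 fold change of 2.92 (SE 0.20, adjusted p = 7.52e-06), and was called with each library left out. The other 5 processing genes were not called. Pam, the amidating enzyme, had 977 ± 50.4 in Cre-positive and 1176 ± 413 in Cre-negative libraries, and Cpe, the carboxypeptidase that trims cut ends, had 120 ± 55.4 in Cre-positive and 140 ± 36.7 in Cre-negative libraries (SD, n = 3 and 4). Pcsk2 itself had 89.6 ± 34.6 in Cre-positive and 87.1 ± 30.1 in Cre-negative libraries (SD, n = 3 and 4). The median of the 6 was -0.26. Among the receptors for the pituitary hormones, 1 of 7 tested of 10 listed was called, the prolactin receptor gene Prlr, with 137 ± 51.0 in Cre-positive and 291 ± 69.5 in Cre-negative libraries (SD, n = 3 and 4, limma log2 fold change -1.13, adjusted p = 0.0348). That call was lost without Cre-positive 76 or 80 or Cre-negative 46, 48 or 75 (adjusted p = 0.0604 to 0.116). The more abundant receptor genes Ghr, Lhcgr and Tshr were not called, and the median of the 7, of which 4 were tested only because of their Cre-negative level, was -1.51.

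The placental relatives of prolactin, which lie with Prl on chromosome 13 in the mouse, were in part read far more often than Prl in Cre-negative libraries. Of 13 tested of 25 listed, 5 were called lower. Of the 13, 12 averaged under 5 normalized counts in Cre-positive libraries and were tested only because of their Cre-negative level, so their direction was set by the filter and the count says nothing of the family. Prl2c5 had 0, 1.0 and 2.1 normalized counts in Cre-positive libraries 45, 76 and 80, and 156.7, 132.0, 109.9 and 178.9 in Cre-negative libraries 46, 48, 75 and 77 (limma log2 fold change -6.28, adjusted p = 7.48e-05). Prl3b1, a placental lactogen, had 0, 0 and 3.1 in Cre-positive libraries 45, 76 and 80, and 152.5, 74.9, 114.4 and 34.1 in Cre-negative libraries 46, 48, 75 and 77 (-5.69, limma adjusted p = 7.62e-04, and -6.37 without Cre-positive 80). Prl8a2 had 0, 2.0 and 0 in Cre-positive libraries 45, 76 and 80, and 60.3, 90.6, 12.6 and 196.4 in Cre-negative libraries 46, 48, 75 and 77 (-5.43, limma adjusted p = 0.00262, -6.17 without Cre-negative 75, and 0.0794 as the adjusted p with limma-voom). The Cre-positive libraries held at most 3 reads of any of these 3 genes. Prl2c2 and Prl8a8 were called at adjusted p-values of 0.0247 and 0.0328 in limma, and lost the call in several runs with a library left out, Prl2c2 without Cre-positive 45 or 76 or Cre-negative 46, 48 or 77 (0.0564 to 0.0849) and Prl8a8 without Cre-positive 45 or 80 or Cre-negative 46, 75 or 77 (0.0578 to 0.0954). The value of Prl8a8 was -3.41, and -4.07 without Cre-positive 76. Prl2a1, the most abundant of the list in Cre-positive libraries, was not called, with 100 ± 65.4 in Cre-positive and 41.4 ± 43.7 in Cre-negative libraries (SD, n = 3 and 4, limma adjusted p = 0.238). This family holds near-identical copies between which reads can be split, so the value of any 1 copy is uncertain.

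**Figure D4:**
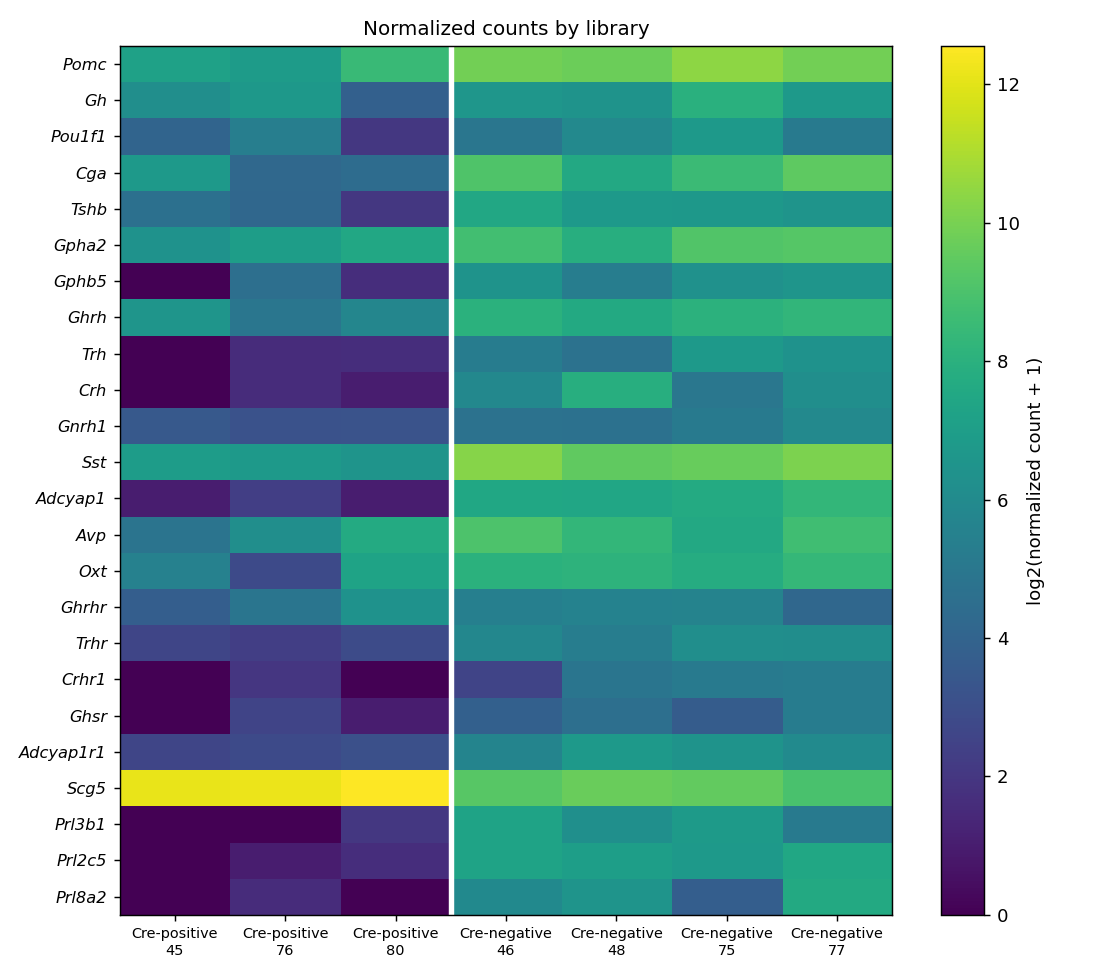
Colour shows log2(normalized count + 1), dark for low and yellow for high, for 5 of the pituitary genes and related genes (rows) in each library (columns), Cre-positive left of the white line and Cre-negative right of it. Pomc, Cga, Tshb, Sst, Adcyap1 and Trh are darker in each Cre-positive library, and Scg5 is brighter.

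Of 25 tested genes within 50 kb of the pituitary genes 3 were called, or 12%, against 13.8% of all tested genes. Of 4 genes within 50 kb of Pomc, 2 were tested and 1, Efr3b, was called lower, with 0, 9.0 and 17.6 normalized counts in Cre-positive libraries 45, 76 and 80, and 116.5, 23.6, 31.5 and 73.4 in Cre-negative libraries 46, 48, 75 and 77. It lies 1912 bases from Pomc on the other strand, and its limma call (log2 fold change -3.17, adjusted p = 0.0462) was lost without Cre-positive 45 or 76 or any single Cre-negative library (0.0569 to 0.135), with -1.91 without Cre-positive 45 and -4.02 without 80. Dnmt3a, the other tested neighbour, missed the threshold (limma adjusted p = 0.182). Around Lhb, 2 of 8 tested genes, Gys1 and Dhdh, were called lower (limma log2 fold changes -1.04 and -1.17, adjusted p = 0.0315 and 0.0457). Gys1 was above the threshold when Cre-positive 45, 76 or 80 or Cre-negative 46 or 48 was left out (0.0518 to 0.103), and Dhdh without Cre-positive 76 or 80 or Cre-negative 46, 48 or 77 (0.0911 to 0.146). Tested neighbours of Cga (3 genes), Tshb (3 genes), Gh (6 genes), Pou1f1 (1 gene) and Pitx1 (2 genes) had limma adjusted p-values from 0.0522 to 0.993.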

How the data were processed

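RNA was measured in 3 Cre-positive and 4 Cre-negative libraries of sorted mTECs. Per the submitters' processing notes, the authors used STAR 2.7.9a, DESeq2 and build GRCm39. The read counter is not given in the sources used here. Gene coordinates in the deposited table equal GENCODE M21 on GRCm38 for 49909 of 52403 shared genes (95.2%), so positions are given on GRCm38. Per the file headers, the deposited table holds normalized counts, a signal that the authors scaled per library and rounded to 1 decimal, with their log2 fold change, p-value and adjusted p-value. Every per-sample column of normalized counts was used. Whole reads were recovered by dividing by the worth of 1 read in each library, and 100% of values came out whole within 0.0501 normalized counts.

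Fold changes were fitted with limma (eBayes with trend) on log2(normalized count + 1) for the 22878 genes with a mean of at least 5, with Benjamini-Hochberg adjustment over all of them and a threshold of 0.05. The added 1 shrinks changes of low genes. On the recovered reads edgeR's quasi-likelihood test called 1736 genes lower and 1011 higher, and DESeq2 called 2870 and 1503. Exact two-sided permutation tests were used for genes under the minimum. Alternatives were other pseudocounts, filters, scaling, tools and covariates, and leaving out each library. The main limma fit, edgeR and DESeq2 were checked on simulated data. No molecular identifiers are named, so read numbers speak to counting error only.

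The 9 genes and the gene lists were chosen with earlier results of these data known. Genes named are the 9, Ikzf1, Pou2f3 and Aire, in each pituitary list every called gene and up to 4 of the most abundant, the 3 closest profiles, and called neighbours within 50 kb. Platr9, Ruvbl2, Tspan2 and Dnmt3a are named for their position and Epcam and Ccl21a as markers, and other exceptions are marked in the text. One neuroendocrine marker is not reported here. Lists are described by counts and medians, with no test. Tests ran in R 4.3.3 with DESeq2 1.42.0, edgeR 4.0.16 and limma 3.58.1, and the rest in Python 3.11.15 with matplotlib 3.10.9, scipy 1.17.1, pandas 2.3.3 and numpy 2.4.6.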

Additional observations from a re-analysis of the deposited data

Results flagged for a closer look

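Among 48 named genes, the 4 Cre-negative values were searched for 1 library far from the others, by a gap that chance exceeds in about 1 of 20 groups. Such a library was found in 3 genes, and a search of this size is expected to flag some by chance alone. Pomc had 1386.4 normalized counts in Cre-negative 75, with the next at 936.9, and without that library its log2 fold change was -2.30 and still called by limma. Gh had 253.1 in Cre-negative 75, with the next at 111.7, and without that library its log2 fold change was -1.05. Fshb had 37.4 in Cre-negative 48, with the next at 1.7, so its level in Cre-negative mTECs rests on that library.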

How the results depend on the processing

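Pomc, Cga and Tshb were called lower in every alternative fit and with each library left out, and no other pituitary gene was called in any of them. With each library left out in turn, the log2 fold changes ran from -2.95 to -2.14 for Pomc, from -4.32 to -3.06 for Cga, from -3.75 to -2.44 for Tshb, from -1.94 to -0.53 for Gh and from -2.64 to -0.98 for Pou1f1. For Fshb they ran from -1.55 to -0.41, but this range lacks the run without Cre-negative 48, the library with most of its reads, where Fshb could not be tested. Fshb was 0.57 with the covariate of 4 Y-linked genes, which is in effect a term for Cre-negative 48. No paired analysis was possible because the groups share no replicate numbers.

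Over all genes 2084 were called lower and 1066 higher. limma-voom called 1352 lower, the Y-linked covariate left 1351 lower and 558 higher, and scaling to library totals gave 2629 lower and 583 higher, with a median over all genes of -0.29 in place of -0.10 on the log2 scale. Leaving out a library gave 1315 (without Cre-negative 46) to 1759 lower and 600 (without Cre-positive 80) to 1008 higher. Of 64 tested genes in the 7 pituitary lists, 21 were called lower and 2 higher, against 9.11% lower and 4.66% higher over all genes tested. The placental genes called lower and Trh, Crh, Adcyap1, Crhr1 and Ghsr were tested only because of their Cre-negative level. The lower count is therefore not read as a result on the lists. In these lists limma-voom and the Y-linked covariate each called 13 lower. No filter, library total scaling or the Y-linked covariate gave 1 higher, and leaving out a library gave 14 to 17 lower and 1 to 2 higher. The following counts cover 38 called genes named in the text, without the closest profiles and the cortical markers. The Y-linked covariate ended 15 of these calls, limma-voom 11, edgeR 10, no filter 5, library total scaling 3, a pseudocount of 0.5 ended 2 and a term for the number range 1. Leaving out a single library ended from 10 to 13 (13 without Cre-negative 48 or 77). Pomc, Cga and Tshb were not among the lost calls. The causes were not tested.

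Signs changed only in genes that were not called. With the Y-linked covariate the log2 fold change was 0.16 for Egr1, 0.29 for Nr4a1, 0.077 for Pam and -0.14 for Pcsk2. Nr4a1 was 0.036 with a term for the number range. Ghrhr was 0.11 in edgeR and in DESeq2, and Pcsk2 was -0.18 with library total scaling and -0.0066 with limma-voom. With a library left out, values ran from -0.27 to 0.091 for Egr1, -0.38 to 0.20 for Nr4a1, -0.89 to 0.43 for Ghrhr, -0.35 to 0.0064 for Pam, -0.63 to 0.10 for Cpe and -0.25 to 0.34 for Pcsk2. Depth limits Prl, Lhb and Pitx1, which were read a few times per library.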
